A study of Cricetiscus sungorus with 16 samples.

Results

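Ovaries of 8-week-old female Siberian hamsters kept in short days (SD, 10 h of light) were compared with those of females kept in long days (LD, 16 h of light). Each group held 4 hamsters, so 8 of the 16 arrays of the series entered this comparison, and they were chosen by the description given for each sample. The remaining 8 arrays came from 3-week-old females, 4 per photoperiod. Each animal had been in its photoperiod since gestation, and the series set out to measure how ovarian gene expression differs with day length at both ages. The labels name no allele, transgene or drug for any group, and LD animals of the same age are the comparison group. Both ovaries of an animal were pooled for total RNA, which was labelled with Cy3 and hybridised alone to an array of mouse oligonucleotide probes. For the 4 SD samples at 8 wk, the title and treatment fields read 16 h of light beside the letters SD, whereas the description reads 10 h. They were taken as short-day animals by the description. The stage of the ovarian cycle at collection is not given in the sources used here.

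Day length is the main seasonal cue of the Siberian hamster. Long nights lengthen the nightly release of melatonin, which lowers the drive from the hypothalamus and pituitary to the gonads, and a female raised in short days reaches puberty late. In the ovary, follicle-stimulating and luteinizing hormone carry follicles to the antral stage, ovulation and the formation of corpora lutea, and the somatic granulosa and theca cells that respond to them produce sex steroids and inhibins. An ovary held in short days may therefore differ from a long-day ovary both in the cells it contains and in what each cell expresses. In whole-ovary RNA, fewer cells of a type and less RNA per cell cannot be told apart.

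The array was designed for mouse, and its identifiers are those of mouse transcripts, mostly RefSeq NM accessions. The files do not pair these identifiers with gene symbols, so transcripts are given by identifier, no gene function is assigned to them, and the ovarian cell type markers could not be read. How well each mouse probe matches its hamster counterpart was not tested. Hamster RNA gave signal well above background on 58.7% to 76.2% of the 41174 probes, depending on the array. Slide 1 was the dimmest, with 75th percentiles of intensity of at most 369.7 on its 4 arrays, and the full span over arrays was 268.7 to 1007. All 4 groups were present on each of the 4 slides, with 1 array each. The LD and SD arrays always lay at places 1 and 2 of the slide for 3 wk, and at places 3 and 4 for 8 wk. Place on the slide therefore cannot be told apart from photoperiod, from age, or from a change of the photoperiod difference with age. Levels below are log2 intensities minus the 75th percentile of the array. A difference is the fitted SD minus LD, which is its mean within slides where no spot is missing.

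At 8 wk, 528 of 20157 transcripts differed between SD and LD ovaries (2.62%, limma with slide as a block, adjusted p under 0.05). Of these, 366 were higher in SD (1.82%) and 162 were lower (0.804%). Without the block the same comparison gave 193, with 148 higher and 45 lower. Most differences were moderate. The median of the 366 was 0.94 on the log2 scale (1.93-fold), with a middle range from 0.68 to 1.51 and a highest value of 6.07. The median of the 162 was −0.86, with a middle range from −1.24 to −0.66 and a lowest value of −4.65. Over all transcripts tested the median difference was −0.01.

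Large differences ran mainly toward higher signal in SD. Among called transcripts, 221 differed at least 2-fold (1.1%): 164 were at least 2-fold higher (0.814%) and 57 at least 2-fold lower (0.283%). At 4-fold the counts were 56 (0.278%) and 10 (0.0496%). Called transcripts lay at all levels of signal. With transcripts divided by mean signal into 4 bins of near-equal size, 52 were higher and 21 lower in the lowest bin (1.45% called), 90 and 37 in the next (2.52%), 124 and 48 in the one above it (3.41%) and 100 and 56 in the highest (3.1%). The median size of a called difference was 1.29, 0.94, 0.90 and 0.80 from the lowest bin to the highest, and the median standard error was 0.19 in the lowest bin and 0.12 in the highest.

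**Figure D1:**
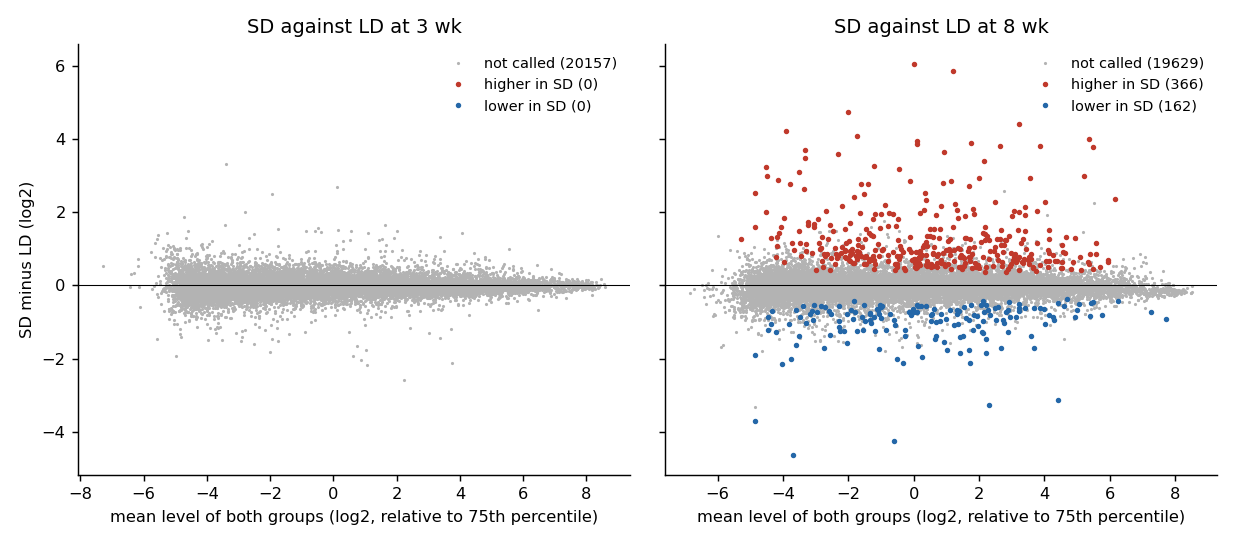
Difference between SD and LD (log2, vertical) against the mean level of both groups (log2 relative to the array's 75th percentile, horizontal) for each of 20157 transcripts, at 3 wk on the left and at 8 wk on the right. Coloured points passed an adjusted p of 0.05 in limma; the 8-wk panel holds 366 higher and 162 lower points along the whole range of levels and the 3-wk panel none.

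Identifiers with a RefSeq NM accession, the curated mRNA class, gave 297 higher and 127 lower of 13722 tested (3.09%). Identifiers that are AK cDNA clones gave 33 and 13 of 2987 (1.54%), and Ensembl transcripts 6 and 2 of 438 (1.83%). Full presence in one photoperiod and absence in the other was rare. No transcript was well above background on all 4 SD arrays and on none of the 4 LD arrays, and 3 showed the reverse, of which 1 was called. Signal was well above background on all 16 arrays for 335 of the 366 and 151 of the 162, and for 17705 of all 20157 transcripts tested. Of the 366, 12 passed the filter on dim probes only through the SD arrays of 8 wk, against 80 of all 20157. Only through the LD arrays of 8 wk passed 1 of the 162, against 134 of all 20157. The 12 are kept in the counts of higher transcripts.

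The 3-wk groups give a level against which both 8-wk groups can be set. The mean of the 3-wk groups lay closer to LD than to SD at 8 wk for 340 of the 366 higher transcripts (92.9%), against 58.2% of all transcripts with a positive difference. For the 162 lower transcripts it was 120 (74.1%), against 63.5% of all with a negative difference. Among the higher transcripts the SD group at 8 wk stood above the other 3 groups in 273, the LD group stood below them in 5, both held in 88, and 0 had neither. Over all transcripts with a positive difference these shares were 47.5%, 32.6%, 9.15% and 10.7%, and in the 366 they were 74.6%, 1.37%, 24% and 0%. Among the lower transcripts SD alone was the extreme group in 86 (53.1%, against 52.7%), LD alone in 14 (8.64%, against 27.2%) and both in 62 (38.3%, against 9.81%). These positions use the 8-wk means by which the called transcripts were chosen. The shares over all transcripts are not matched in size of difference, so the comparison is a description only.

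In size, the 366 transcripts stood at a median of 1.15 above the 3-wk mean in SD and 0.19 above it in LD at 8 wk. The 162 stood at −0.74 in SD and 0.18 in LD. For all transcripts these medians were −0.03 and −0.01. Both distances use the same 3-wk arrays, and the 8-wk arrays also chose the transcripts, so they are given as levels without a test. In the median, the higher and the lower set both stood further from the 3-wk level in SD than in LD. That level pools both photoperiods, which differed at 3 wk by a median of −0.29 in the 162. Against the 3-wk group of the same photoperiod, the median change of the 162 was −0.02 in LD and −0.57 in SD. For the 366 it was 0.20 in LD and 1.14 in SD. The 162 thus did not rise in LD in the median when set against LD at 3 wk.

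**Figure D2:**
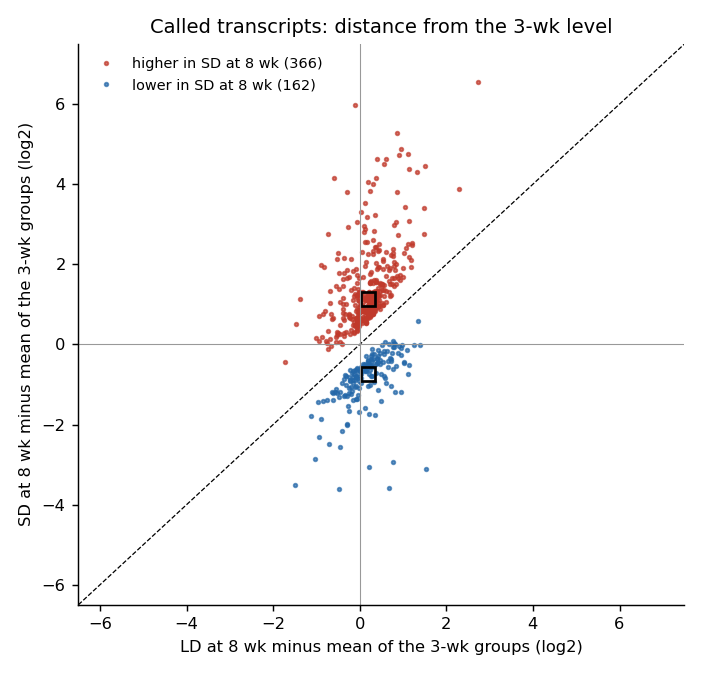
Group mean at 8 wk minus the mean of the 3-wk groups (log2) in LD (horizontal) and in SD (vertical) for the 528 called transcripts; squares mark the medians of the 366 higher and 162 lower transcripts and the dashed line marks equal values. Medians lie at 0.19 in LD and 1.15 in SD for the higher set and at 0.18 and −0.74 for the lower set.

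The same contrast at 3 wk uses other animals and asked whether the difference was already present. In limma 0 transcripts passed at that age, in either direction, 1302 had an unadjusted p under 0.05 (6.46%), and 8 passed when arrays were weighted by quality. Of the 162 lower transcripts, 144 were also lower in SD at 3 wk (88.9%, against 62.9% of all transcripts), and 59 of them were so at an unadjusted p under 0.05 (36.4%, against 4.59%), with 0 at such a p in the opposite direction. Of the 366 higher transcripts, 241 were also higher at 3 wk (65.8%, against 37.1%), 23 at an unadjusted p under 0.05 (6.28%, against 1.87%) and 7 in the opposite direction. The median difference at 3 wk was −0.29 for the lower set and 0.06 for the higher set, against −0.05 for all. Both sets thus had the sign of 8 wk at 3 wk more often than the transcripts tested as a whole, with medians smaller in size than the 0.94 and −0.86 of 8 wk. The sets were not tested against each other. Shares with an unadjusted p under 0.05 at 3 wk, in either direction, varied with the processing and with the arrays or slides kept. Transcripts called lower had 31.5% to 56.7%, those called higher 5.41% to 23.2% and all transcripts 1.64% to 12.4%. The comparisons at 8 and 3 wk share no array, but they share slides and 1 estimate of each transcript's spread, so their p-values are not independent.

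Whether the photoperiod difference changed between the ages was tested directly. The difference at 8 wk minus that at 3 wk passed for 35 transcripts (0.174%, limma, adjusted p under 0.05), 33 positive (0.164%) and 2 negative (0.00992%). Of the 35, 30 changed by at least 2-fold (0.149%), 28 of them positive (0.139%), and at 4-fold there were 17 positive (0.0843%) and 1 negative (0.00496%). Without the block 12 passed, and without slide 1, 2, 3 or 4 in turn 7, 5, 13 and 13 passed. Leaving out single arrays of 8 wk moved the count most for LD replicates 1 to 4 (18, 16, 59 and 21) and SD replicates 2 and 4 (18 and 92). All 35 were among the 528, which rest on the same 8-wk arrays. The median of this change in difference was 0.87 over the 366 higher transcripts and −0.59 over the 162 lower ones, a description only, since the change contains the 8-wk difference by which both sets were chosen. Over all transcripts the median was 0.05, and 8.51% had an unadjusted p under 0.05.

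NM_001033364 showed the largest fitted difference of all transcripts. With normexp background correction it was 5.09, below the 5.57 of NM_013547. In SD at 8 wk its levels were 3.26, 3.45, 3.83 and 1.67 on slides 1 to 4, and in LD they were −2.74, −3.06, −2.93 and −3.34. All 8 arrays at 3 wk lay between −3.29 and −2.57. The SD arrays of 8 wk were thus high on every slide and no other array came near them. The difference was 6.07 (67.2-fold, 95% interval 5.48 to 6.67, SE 0.27, limma adjusted p = 2.78e-07), and it was −0.09 at 3 wk (limma adjusted p = 0.944). The change in difference was 6.17 (SE 0.39, limma adjusted p = 1.68e-05).

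NM_013547 followed, on the 3 slides where its SD spot was not set aside as an outlier. Its SD levels at 8 wk were 4.09, 4.42 and 3.96, against −1.72, −1.59, −2.43 and −1.25 in LD. At 3 wk LD ran from −4.83 to −3.61 and SD from −4.05 to −1.67. The groups of this transcript, picked for its large difference, did not overlap at 8 wk. LD itself had risen with age by 2.23 (SE 0.45, limma adjusted p = 0.00926), against 7.15 in SD (SE 0.50, limma adjusted p = 8.48e-06). The difference at 8 wk was 5.87 (58.5-fold, 95% interval 4.77 to 6.97, limma adjusted p = 0.000117), by 5.21 to 6.85 within slides. At 3 wk it was 0.95 (limma adjusted p = 0.74). Its change in difference of 4.92 passed (SE 0.68, limma adjusted p = 0.0145), but not without slide 1, 2 or 4 (limma adjusted p 0.152, 0.1935 and 0.0517) nor without SD 8-wk replicate 2 (limma adjusted p 0.05345).

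NM_153539 had the lowest fitted difference, an order that rests on signals at the background. LD arrays at 8 wk stood at −1.69, −0.62, −1.14 and −1.99, and SD arrays at −6.76, −7.42, −7.09 and −2.76. Only the last of these SD arrays was well above background, so the other values are near the limit of measurement. The difference was −4.65 (SE 0.90, 95% interval −6.60 to −2.69, limma adjusted p = 0.0158), and −3.77 with each SD signal raised to at least the lowest one well above background on its array, a smaller fall than the −4.26 of NM_008380. Within slides it was −5.07, −6.80, −5.94 and −0.77. The transcript lost its call without slide 1, 2 or 3 (limma adjusted p 0.0765, 0.181 and 0.128), without SD 8-wk replicate 1, 2 or 3 (0.0649, 0.0774 and 0.0607), without the LD array of slide 2 (0.077), and when only the 8-wk arrays were fitted (0.0713 with the block and 0.0778 without it). With normexp background correction the difference was −1.87 (limma adjusted p = 0.0282), against −3.22 for NM_008380. At 3 wk its SD levels of −2.11, −5.04, −4.78 and −2.46 lay mostly below the LD levels of −0.66, −2.37, −2.38 and −3.29, a difference of −1.42 that did not pass (limma adjusted p = 0.758).

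NM_008380 had the next lowest fitted difference and was well above background on all 16 arrays. In LD at 8 wk it stood at 1.37, 0.65, 1.34 and 2.80, and in SD at −4.00, −4.22, −3.76 and 1.11. SD replicate 4 lay within the LD range, and the other 3 SD arrays lay far below it. The difference was −4.26 (19.1-fold lower, SE 0.65, 95% interval −5.67 to −2.85, limma adjusted p = 0.00384), and −1.68 on slide 4 against −4.87 to −5.37 on the others. It was −5.16 without SD 8-wk replicate 4. At 3 wk LD ranged from 0.93 to 2.65 and SD from −1.87 to 1.21, a difference of −2.04 with an unadjusted p of 0.00816 that did not pass over all transcripts (limma adjusted p = 0.74). The call at 8 wk was lost without slide 2 (limma adjusted p = 0.0531) and in the fit of the 8-wk arrays alone without the block (limma adjusted p = 0.2087).

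**Figure D3:**
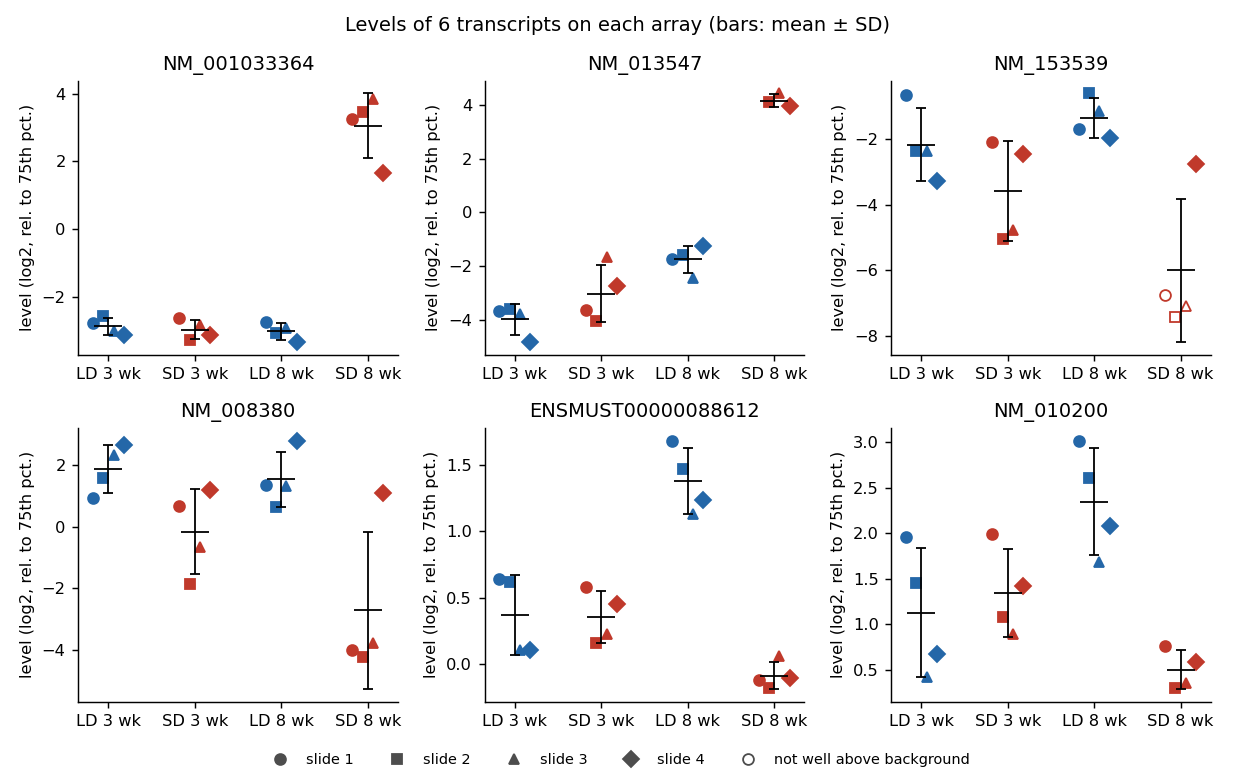
Level of 6 transcripts (log2 relative to the array's 75th percentile) on each array by group, with symbols for the slide, open symbols for signals not well above background, and the mean ± standard deviation of the measured arrays. At 8 wk the SD arrays do not overlap the LD arrays in 5 panels, and on slide 4 they lie nearest to LD in NM_153539 (−2.76) and within the LD range in NM_008380 (1.11). The 6 transcripts were picked by their difference or its change, so the lack of overlap is not a further result.

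The pair of transcripts with a negative change in difference that passed was singled out after their values were seen. Each rose with age in LD and fell in SD, and the ages also differed in place on the slide. The change in difference is the age change in SD minus that in LD. These moves are thus part of the value that picked the pair, and their p-values are no separate support. NM_010200 stood at 3.02, 2.61, 1.69 and 2.08 in LD at 8 wk and at 0.76, 0.30, 0.35 and 0.59 in SD, with 3-wk arrays between 0.42 and 1.99 in both photoperiods. Between 3 and 8 wk its LD mean rose by 1.23 (SE 0.20, limma adjusted p = 0.00256). Its SD mean fell by 0.85 (SE 0.20, limma adjusted p = 0.00804). The resulting difference of −1.85 at 8 wk was 3.61-fold (limma adjusted p = 0.000338). For this transcript, 2 other probes past the filter gave differences of −1.83 and −1.74. ENSMUST00000088612 stood at 1.68, 1.47, 1.13 and 1.23 in LD and at −0.12, −0.18, 0.06 and −0.10 in SD at 8 wk, and between 0.11 and 0.64 on all arrays at 3 wk. Its LD mean rose by 1.01 (SE 0.14, limma adjusted p = 0.00128). Its SD mean fell by 0.44 (SE 0.14, limma adjusted p = 0.038). The difference at 8 wk was −1.46 (2.75-fold lower in short days, limma adjusted p = 0.000157). For both, picked by their change in difference, the groups at 8 wk did not overlap. The 3-wk arrays lay between them for ENSMUST00000088612, and for NM_010200 their range overlapped both. The change in difference was −2.07 for NM_010200 and −1.44 for ENSMUST00000088612 (limma adjusted p = 0.0107 for each), and neither passed when any slide was left out (limma adjusted p 0.0507 to 0.152). Without the block that of NM_010200 did not pass either (limma adjusted p = 0.2292).

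To see how far the difference held in hamsters not used to choose the transcripts, each slide was set aside in turn, transcripts were called on the other 3 slides, and their difference was read on the slide set aside. Without slide 1, 202 were called higher and 114 lower. On slide 1, 168 of the 188 higher ones measured there were higher in SD (89.4%, against 58% of all transcripts), and 91 of 108 lower ones were lower (84.3%, against 42%). On slide 2 it was 112 of 112 and 29 of 29 (against 46.6% and 53.4%), and on slide 3 it was 176 of 192 (91.7%, against 46.7%) and 60 of 67 (89.6%, against 53.3%). On slide 4 it was 240 of 253 higher (94.9%, against 42.8%) and 112 of 148 lower (75.7%, against 57.2%). Both directions thus recurred on every slide set aside, and the lower share was smallest on slide 4. Each share rests on 1 SD and 1 LD hamster, and the transcripts in it are not replicates. The SD and LD arrays of 8 wk kept their places on every slide. A recurrence by place and one by photoperiod therefore cannot be told apart.

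The sizes on the slide set aside were mostly smaller than those fitted on the other slides. For higher transcripts the medians were 0.991, 1.89, 0.999 and 0.71 on slides 1 to 4, against fitted medians of 1.13, 1.72, 1.31 and 1.19. For lower transcripts they were −0.47, −1.65, −0.76 and −0.38, against −0.84, −1.31, −1.23 and −1.06. The medians were largest on slide 2 and smallest on slide 4 in both directions, over sets of transcripts that differ from slide to slide. Without slide 2 the whole comparison gave 141 calls, 112 higher and 29 lower, and without SD 8-wk replicate 4, the short-day hamster on slide 4, it gave 637, 410 higher and 227 lower. Without slide 1 or 3 it gave 316 and 259, without LD 8-wk replicate 2 it gave 244, and without SD 8-wk replicate 1, 2 or 3 it gave 313, 247 and 288.

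**Figure D4:**
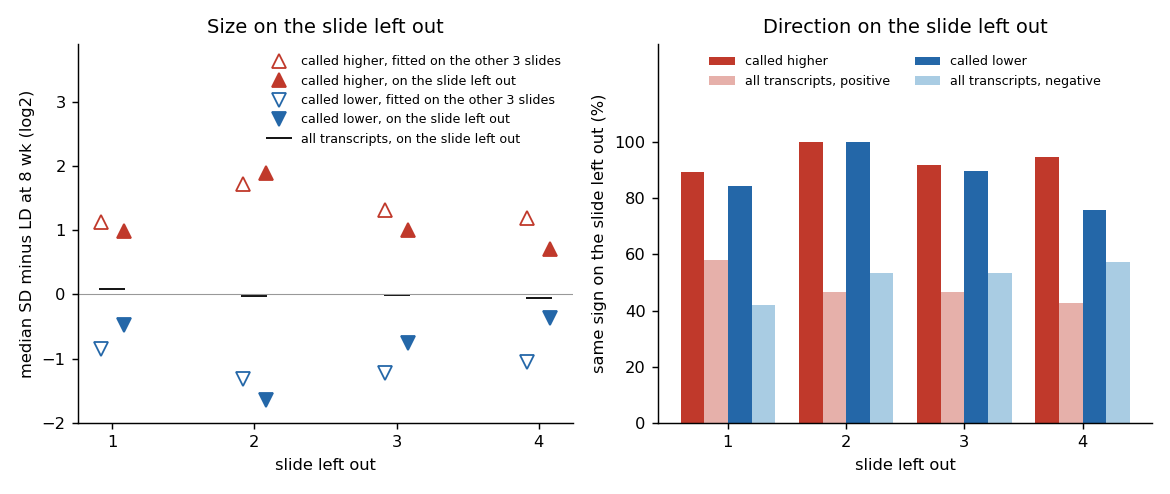
Transcripts called on 3 slides and read on the slide left out: median difference (log2, left; open symbols fitted on the other slides, filled symbols on the slide left out) and share with the same sign (%, right; pale bars are all transcripts). All 4 slides show higher transcripts above 0 and lower transcripts below 0, with the largest medians on slide 2 (1.89 and −1.65) and the smallest on slide 4 (0.71 and −0.38).

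The spread between hamsters of a group was given by the standard deviation of each transcript. Its median over transcripts, between the 4 arrays of a group, was 0.33 for long-day and 0.30 for short-day hamsters of 8 wk, and 0.19 and 0.16 after each slide's mean was taken off. At 3 wk these were 0.30 and 0.29, and 0.18 and 0.13. At 8 wk the standard deviation was over 1 for 3.94% of transcripts among long-day hamsters and 1.78% among short-day hamsters, with 2.04% and 1.7% at the younger age. These spreads were not tested against each other. With 1 array per hamster, they also hold differences in array quality, and the shares over 1 hold differences between slides. LD 8-wk replicate 1 was the dimmest array of the series (75th percentile of 268.7). Other probes of called transcripts pointed the same way as the probe used in 131 of 151 cases (86.8%), against 66% for transcripts not called. The other probes were read on the same arrays as the calls. Transcripts not called are not matched in size of difference, so these shares are a description only. For 89.9% of all transcripts, the 95% interval at 8 wk held no difference as large as 2-fold in either direction.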

How the data were processed

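The authors deposited 1-colour Agilent scanner files, made with Agilent Feature Extraction 10.5.1.1 per the file headers, whose processed intensity per spot is linear, background-corrected within an array and not normalized between arrays. Other columns of the deposited files, median intensity of spot and background and flags of outliers and of signal well above background, were also used. The authors' deposited value table repeats these intensities in rounded form, on a linear scale without centring (medians of 28.8 to 104 over the non-control spots), and served as an alternative.

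Control spots and outlier spots were left out, spots of a probe averaged, and log2 values set against the 75th percentile of the array. Probes needed signal well above background throughout 1 or more groups of 4 arrays, and values on 12 or more arrays, 2 or more per group and per slide. Each identifier was represented by its brightest probe, which left 20157 of 33272. Limma 3.58.1 in R 4.3.3 fitted all 16 arrays with the 4 groups and slide as a fixed block (lmFit and eBayes with trend), with Benjamini-Hochberg adjustment and a threshold of 0.05, and the script was tested on simulated data. Standard errors were computed exactly where values were missing. The slide comes from the barcode in the file names. At 8 wk, deviations from the group mean correlated between the SD and LD arrays of a slide (r from 0.262 to 0.722 over 4 pairs), and arrays on different slides had a median r of −0.08. The labels give an animal code for each sample, and the 4 arrays of a group were taken as 4 hamsters.

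Named are the largest 2 rises and 2 falls, as fitted, among called transcripts with the same sign on every slide measured (at least 3) and the higher group well above background on all 4 arrays, a condition that fixes their sign on each slide. Eligible were 359 higher and 162 lower transcripts. NM_010200 and ENSMUST00000088612 were named in addition, as the only 2 transcripts with a negative change in difference that passed. The rule for symbols and fixed genes, the gene function lists and the cell type markers could not be applied, since no table pairs identifiers with symbols here. Alternatives covered the block, scaling, background correction, filter, probes, trend, array weights, the value table and arrays or slides left out. The comparison and the lists were chosen with earlier results of these data known. Arrays limit precision by their number.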

Additional observations from a re-analysis of the deposited data

Results flagged for a closer look

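Among the 23 groups of 4 measured arrays of the named transcripts, 3 held an array far from the other 3. The rule flags about 1 group in 20 for independent values with a normal spread. That rate cannot be applied here. The transcripts were picked for their differences, and NM_008380 and NM_153539 were flagged on the same array. The other SD 8-wk arrays of NM_153539 were not well above background. NM_008380 stood at 1.11 in SD 8-wk replicate 4, and the nearest other array of its group at −3.76. NM_153539 stood at −2.76 in the same hamster, and the nearest other array at −6.76. NM_013547 stood at −4.83 in LD 3-wk replicate 4, with the nearest other array at −3.79.

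By the limma test of the change itself, the photoperiod difference changed between 3 and 8 wk for 4 named transcripts. Of these, NM_010200 and ENSMUST00000088612 were named because they passed this test, so their passing is no further support. NM_001033364 and NM_013547 were named for the 8-wk difference, which the change contains. Only NM_001033364 passed under every alternative. The change was 6.17 for NM_001033364, 4.92 for NM_013547, −2.07 for NM_010200 and −1.44 for ENSMUST00000088612.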

How the results depend on the processing

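The count of 528 transcripts at 8 wk was 221 with a 2-fold minimum, 193 without the replicate block by slide, 232 from the 8-wk arrays alone with the block and 83 without it. With array weights it was 814, 473 higher and 341 lower (58.1% higher, against 69.3%). It was 316, 141 and 259 without slides 1, 2 and 3, and 244 to 637 with single arrays left out. The other settings stayed within 1.5 times. At 3 wk 8 passed with array weights and 0 otherwise. The 35 changes in difference became 12 without the block, 86 with slide as a random block, 101 with array weights, 7, 5, 13 and 13 without slides 1 to 4, and 16 to 92 without single arrays. The causes of these shifts were not tested, and no direction reversed. The replicate block by slide changed the call of NM_008380 from the 8-wk arrays alone and of the change in NM_010200. The planned normexp correction was unusable because of extreme local backgrounds, so a form with up to 59 backgrounds per array replaced was chosen after seeing the data. Alternatives for function lists were not run, since identifiers could not be matched to symbols. Dim probes limit NM_153539 most, with 3 SD arrays not well above background.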
